A study of Mus musculus with 12 samples.

Results

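The 40 genes described here act in mitosis and on the spindle, and were taken by gene symbol, through the Ensembl gene ID, from the 18269 genes of 1 table of mouse embryoid body expression. All 40 were in the table and all passed the filter on low values. Embryoid bodies are aggregates of embryonic stem cells that differentiate in culture. They were made from 2 C57BL/6 lines, 4C2 with the genotype Gcn5-/- (called null) and 4_1 with the genotype Gcn5fx/fx, in which the gene is flanked by recombination sites and intact (called floxed), and were collected at day 5 and at day 3, with 3 samples in each of the 4 groups. Gcn5, whose gene symbol is Kat2a, is a histone acetyltransferase, and the series asks how its loss changes gene expression early in differentiation. Each genotype is 1 line, so line and genotype cannot be told apart. The labels number 3 samples per group while the series text speaks of duplicates, and no label says whether samples came from separate cultures, so p-values measure the spread between these samples, which may be technical. The culture medium and the way the allele was deleted are not given in the sources used here, and a second pair of lines that the series text names for qRT-PCR is not analysed here.

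Mitosis is ordered by a small set of kinases and by protein destruction. Cyclin B and Cdk1, helped by Plk1 and Aurora A, start it. The spindle checkpoint holds it until every chromosome is attached through its kinetochore, and the anaphase-promoting complex with Cdc20 and Ube2c then ends it by destroying securin and cyclin B. Most genes of this machinery are transcribed in G2 and M phase, under the MuvB complex with B-Myb and Foxm1, which acts at a promoter element named the CHR (cell cycle genes homology region), often beside CCAAT boxes bound by NF-Y. Pluripotent mouse cells have a short cycle with brief gap phases, which lengthen as they differentiate.

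Promoter windows of RefSeq on GRCm38.p6, 250 bases before to 50 bases after the start, were at hand for 32 of the 40 members and for 11859 of the genes tested. The CHR core TTTGAA, read on either strand (TTCAAA on the other), stood in 71.9% of the members' windows, against 11.7% of all windows. TTCGAA, a variant of it, was in 12.5% and 1.94%, CCAAT on either strand (ATTGG on the other) in 75% and 38.8%, and 2 or more CCAAT in 50% and 14.7%. CCAAT together with TTTGAA or TTCGAA was in 68.8% of the members' windows, against 5.79% of all windows. Each motif was counted on its own, whether or not its letters overlapped those of another, and a match describes letters, not a bound site. No window was held for Ccna2, Cdc25c, Foxm1, Spc24, Aurkb, Incenp, Kif20a and Tpx2. Of the 25 members with TTTGAA or TTCGAA, 4 were lower and 2 higher in null than in floxed samples at day 5. Of the 7 members without either, 3 were lower (Ccnb1, Mad2l1, Nuf2) and 1 higher. For Mad2l1 and Pttg1, among these 7, the RefSeq window does not reach the gene start of GENCODE M21, so motifs there were not searched. Between days, 17 of the 25 and 2 of the 7 fell in the null line, and 15 and 1 in the floxed line. With or without a window, 21.9% of all genes tested fell in the null and 19.2% in the floxed line. At day 5, 13.5% of all genes tested were lower and 13% higher in null samples. Whether the motifs bear on these changes was not tested.

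The promoters of 6 members are shown because these genes mark the patterns described here. All 6 hold the CHR core or its variant, so none of the 7 members without either is shown. Cdc20 and Ube2c fell with time in both lines and were lower in null samples at day 5. Cdk1 fell in both lines with no call between them, Bub1 fell by the greatest amount, Kif23 rose, and Top2a differed most between the lines. Each runs 5′ to 3′ on the strand of its gene from 150 bases before to 30 bases after the start, and capitals mark the CHR core, its variant and CCAAT on either strand.
Cdc20: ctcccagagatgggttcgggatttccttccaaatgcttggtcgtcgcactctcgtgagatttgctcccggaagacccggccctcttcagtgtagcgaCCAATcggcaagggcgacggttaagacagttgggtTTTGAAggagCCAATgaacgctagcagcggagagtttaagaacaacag
Ube2c: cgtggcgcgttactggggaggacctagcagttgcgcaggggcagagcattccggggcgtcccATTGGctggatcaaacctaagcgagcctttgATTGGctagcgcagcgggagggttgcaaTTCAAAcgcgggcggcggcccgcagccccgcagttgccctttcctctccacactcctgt
Cdk1: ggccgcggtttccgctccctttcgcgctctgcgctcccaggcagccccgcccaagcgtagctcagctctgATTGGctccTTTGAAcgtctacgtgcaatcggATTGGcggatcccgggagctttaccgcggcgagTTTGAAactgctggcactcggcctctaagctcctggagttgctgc
Bub1: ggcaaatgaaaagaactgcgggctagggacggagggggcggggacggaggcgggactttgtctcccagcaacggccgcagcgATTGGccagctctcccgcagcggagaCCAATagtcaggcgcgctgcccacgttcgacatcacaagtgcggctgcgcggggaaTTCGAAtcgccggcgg
Kif23: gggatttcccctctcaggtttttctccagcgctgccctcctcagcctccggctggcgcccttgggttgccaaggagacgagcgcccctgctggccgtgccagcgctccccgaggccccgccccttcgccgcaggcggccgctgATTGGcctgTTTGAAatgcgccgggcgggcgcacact
Top2a: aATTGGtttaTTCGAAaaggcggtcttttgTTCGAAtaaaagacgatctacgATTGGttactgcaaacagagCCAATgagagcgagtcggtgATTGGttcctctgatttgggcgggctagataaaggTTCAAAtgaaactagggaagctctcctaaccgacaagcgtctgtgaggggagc
They lie at chr4:118437314-118437493 (minus strand), chr2:164769779-164769958 (plus strand), chr10:69352883-69353062 (minus strand), chr2:127831830-127832009 (minus strand), chr9:61946770-61946949 (minus strand) and chr11:99024160-99024339 (minus strand) of GRCm38.p6. Kif23, which rose, holds the same pair of ATTGG and TTTGAA, a few bases apart, that Cdk1 shows, and Top2a holds the most matches of the 6.

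The values are read counts divided by a size factor per library, called normalised reads below. Libraries held 18022071 to 26803369 reads in null and 23090915 to 29446068 in floxed samples, and the members drew 509 to 62675 reads each per library, with 36 of the 40 at 1000 or more in every library. Together the members took 0.881 ± 0.026% of reads in null and 0.783 ± 0.058% in floxed samples at day 5, and 0.926 ± 0.057% and 0.823 ± 0.033% at day 3 (SD, n = 3 each). Top2a alone made up 19.5% to 22.2% of the members' summed normalised reads in null and 13.5% to 16.1% in floxed samples at day 5, and 21.4% to 23.8% and 16.1% to 16.6% at day 3. Without the 4 members on chromosome 11, the sums of the lines overlapped, at 144549 to 146933 in null and 139072 to 154125 in floxed samples at day 5, and at 156417 to 170701 and 156963 to 164180 at day 3.

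Per kilobase of annotated exon, Top2a and Cdc20 had the highest levels of the members in every group. Top2a averaged 4423 and Cdc20 2857 normalised reads per kilobase in null samples at day 5, against 2960 for Top2a and 3460 for Cdc20 in floxed samples, so that Top2a led in the null line and Cdc20 in the floxed line. At day 3 the same order held, with 5549 and 3658 in null and 3635 and 3994 in floxed samples. The phosphatase genes Cdc25b, at 161 to 213 normalised reads per kilobase over the 4 groups, and Cdc25c, at 146 to 162, were lowest in every group, and the kinetochore gene Nuf2 stood at 199 to 264.

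Kat2a itself had 739, 852 and 860 normalised reads in null samples, against 2161, 2391 and 2071 in floxed samples, at day 5, and 649, 614 and 840 against 2077, 2226 and 2380 at day 3. The change was -1.43 ± 0.11 (limma, adjusted p = 1.6e-05) at day 5 and -1.68 ± 0.11 (adjusted p = 1.01e-05) at day 3, in the direction of the labels. As the table gives 1 value per gene, it does not show which part of the gene the remaining reads come from. Kat2a lies on chromosome 11, and genes of that chromosome were higher in the null line as a whole. Their median log2 change was 0.33 at day 5, against -0.02 over all genes, and 0.36 at day 3, against -0.004. At day 5, 41.3% of the 1332 tested genes of chromosome 11 were called higher and 2.63% lower. At day 3 these shares were 30.3% and 0.225%. The members Top2a, Aurkb, Birc5 and Pttg1 lie on chromosome 11. Their genotype changes are therefore also given after the median change of that chromosome is subtracted (chromosome 11 centred).

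Markers of differentiation moved between the days in both lines. Of 6 pluripotency genes, 3 fell and 1 rose in the null line and 3 fell and 3 rose in the floxed line, and Pou5f1 changed by -2.39 in the null and -1.67 in the floxed line on the log2 scale. Their summed level was 4737 to 7389 normalised reads in null and 8605 to 11774 in floxed samples at day 5, against 13389 to 19348 and 17012 to 23198 at day 3. All 5 endoderm genes (Gata4, Gata6, Sox17, Foxa2, Dab2) rose in both lines. Of 4 neural genes 2 rose in the null and 3 in the floxed line, of 4 primed epiblast genes 1 rose and 2 fell in each, and of 5 primitive streak and mesoderm genes 1 rose and 2 fell in the null and 1 rose and 1 fell in the floxed line. Of 6 genes of fibroblasts, such as those of feeder layers, 4 rose and 1 fell in each line. Their sum was 1146 to 2914 in null and 1019 to 2805 in floxed samples at day 5 and 217 to 296 and 269 to 295 at day 3, with Postn at 0 in at least 1 library of each line at day 3. Between the lines at day 5, limma called 3 pluripotency, 3 primed epiblast, 1 streak and mesoderm, 1 endoderm and 1 neural gene lower in null samples. It called no marker higher and no fibroblast gene. At day 3 it called 2 primed epiblast genes lower and no other marker. Of all genes, 26.5% were called at day 5 and 6.12% at day 3. The part of these shifts in cell makeup in the results for the members was not tested. The samples are bulk RNA, in which fewer cells in mitosis and less RNA per mitotic cell cannot be told apart.

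Between the days, more members fell than rose in both lines. In the null line 22 of the 40 members fell and 1, Kif23, rose at day 5 against day 3 at an adjusted p under 0.05 (limma on log2 of normalised reads + 1, Benjamini-Hochberg over 17000 genes), where 21.9% of all genes tested were lower and 22.6% higher, 44.5% in all. The floxed line had 16 falls and 4 rises (Kif23, Nuf2, Ndc80, Aurkb), where 19.2% of all genes were lower and 22.5% higher, 41.7% in all. Changes were below 0 in 30 members in the null line, against 49.7% of all genes, and in 26 in the floxed line, against 50%. The median member changed by -0.24 on the log2 scale in the null and -0.09 in the floxed line, against 0.00 over all genes in both. All 16 members that fell in the floxed line were among the 22 that fell in the null line. The 6 others, called in the null line only, were Ccna2, Bub1b, Bub3, Pttg1, Spc24 and Incenp. For none of them did limma call a difference between the lines in the change over time, while DESeq2 called it for Ccna2. In 23 members every null sample of day 5 lay below every one of day 3, where 26.3% of all genes did so, and in 16 every floxed sample did, where 25.9% of all genes did. Leaving out the libraries numbered 3, which had the lowest value of the third principal component in every group (5.89% of variance), left 18 falls and 1 rise in the null line and 14 falls and 1 rise, that of Kif23, in the floxed line. Only 9 members fell in the floxed line without day 3 replicate 1 or day 5 replicate 2.

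**Figure D1:**
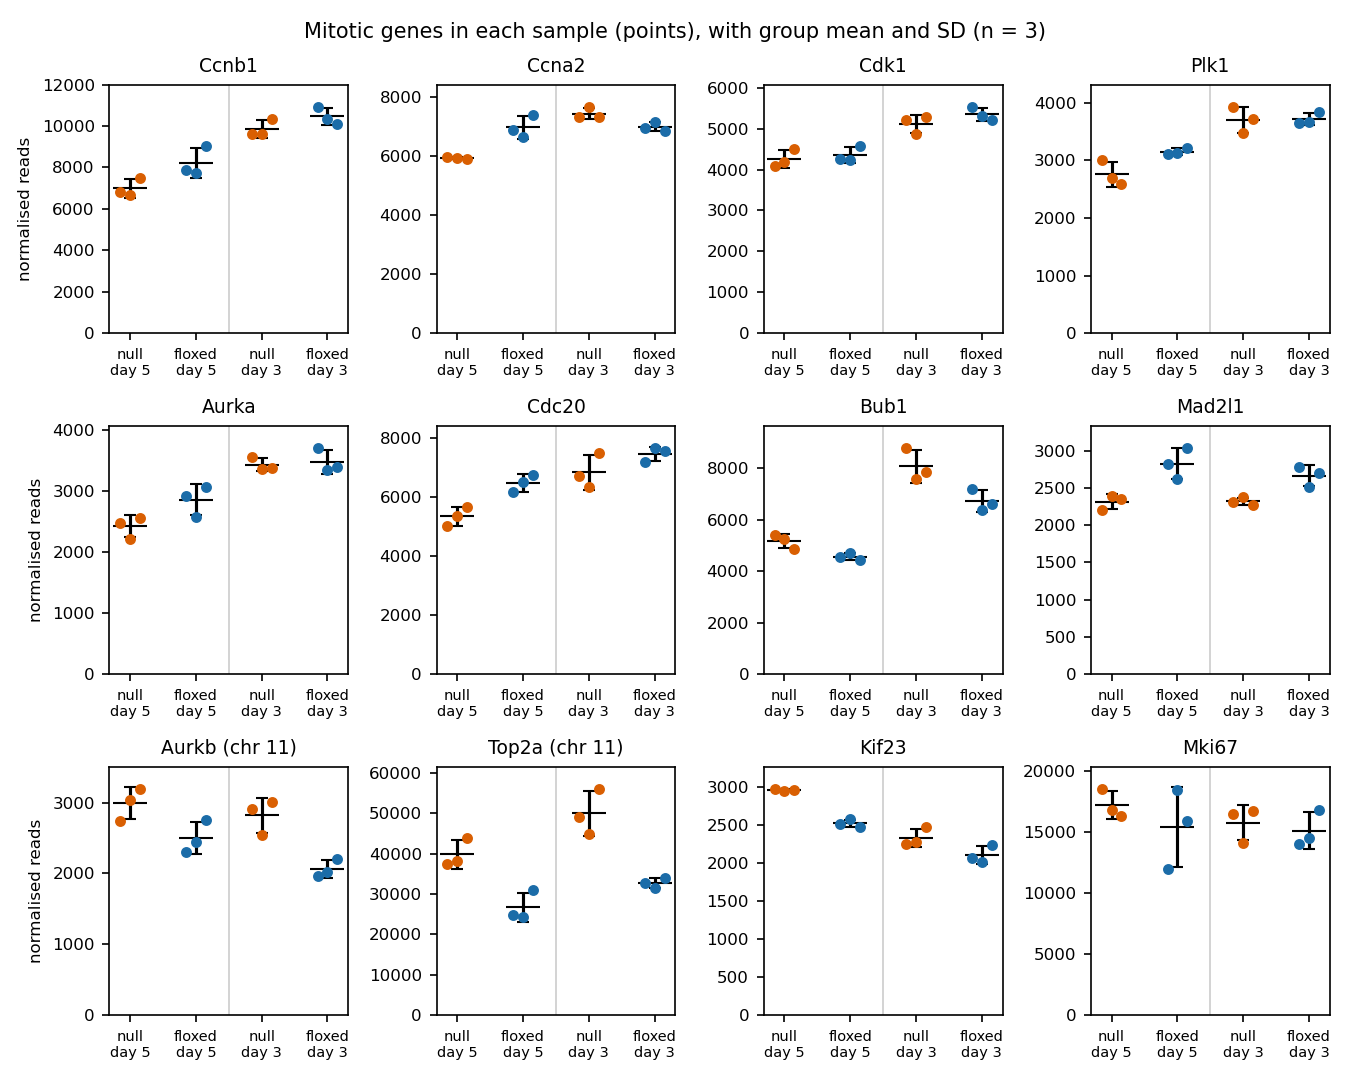
Normalised reads of 12 mitotic genes in each sample, with points for samples and bars for the mean and SD of 3 samples, in null and floxed embryoid bodies at day 5 (left of the line in each panel) and day 3 (right). Ccnb1, Plk1, Aurka and Cdc20 lie lower at day 5 in both lines, Kif23 lies higher, and Top2a and Aurkb, on chromosome 11, average higher in null than in floxed samples on both days.

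Of 8 kinases, cyclins and phosphatases of mitotic entry, 5 fell in the null and 4 in the floxed line, and none rose by limma. The shares of all genes that fell were 21.9% in the null and 19.2% in the floxed line. Ccnb1 (ENSMUSG00000041431.16, chromosome 13, 100778650 to 100786570), cyclin B1, had 6797, 6673 and 7497 normalised reads at day 5 and 9601, 9595 and 10352 at day 3 in the null line. Floxed samples of Ccnb1 had 7877, 7750 and 9047 at day 5 and 10914, 10356 and 10115 at day 3. Every day 5 sample lay below every day 3 sample in both lines, and Ccnb1 fell by 0.50 ± 0.07 on the log2 scale (adjusted p = 0.000179) in the null and by 0.35 ± 0.07 on the log2 scale (adjusted p = 0.00211) in the floxed line. Cdk1 (ENSMUSG00000019942.12, chromosome 10, 69335146 to 69352938), its kinase partner, had 4087, 4180 and 4499 normalised reads at day 5 and 5204, 4865 and 5273 at day 3 in the null line. Floxed samples of Cdk1 had 4254, 4230 and 4568 at day 5 and 5527, 5320 and 5201 at day 3. The days did not overlap in either line, and the falls were near in size (-0.27 ± 0.06, adjusted p = 0.00413 in null, -0.30 ± 0.06, adjusted p = 0.00209 in floxed). Plk1 (ENSMUSG00000030867.7, chromosome 7, 122159439 to 122169873), the polo-like kinase of centrosome maturation and mitotic exit, had 3007, 2690 and 2590 normalised reads at day 5 and 3929, 3471 and 3715 at day 3 in the null line. Floxed samples of Plk1 had 3109, 3132 and 3220 at day 5 and 3660, 3670 and 3851 at day 3. It too was lower in every day 5 sample (-0.42 ± 0.07, adjusted p = 0.000380 in null, -0.24 ± 0.07, adjusted p = 0.0143 in floxed). Aurka (ENSMUSG00000027496.15, chromosome 2, 172356190 to 172370535), the Aurora kinase of the spindle poles, had 2480, 2212 and 2556 normalised reads at day 5 and 3546, 3350 and 3376 at day 3 in the null line. Floxed samples of Aurka had 2917, 2577 and 3065 at day 5 and 3698, 3337 and 3391 at day 3. Aurka fell by 0.51 ± 0.08 on the log2 scale (adjusted p = 0.000287) in the null and by 0.29 ± 0.08 on the log2 scale (adjusted p = 0.0114) in the floxed line, with no overlap between days. The call in the floxed line was lost without day 3 replicate 1 or day 5 replicate 2 (adjusted p = 0.0578 to 0.0581), and that of Plk1 there without the libraries numbered 3 (adjusted p = 0.0667).

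Ccna2 (ENSMUSG00000027715.9, chromosome 3, 36564865 to 36572150), cyclin A2, which acts in S phase and in early mitosis, fell in the null line. The difference between the lines in the change over time was not called by limma (adjusted p = 0.0984) but was by DESeq2 (adjusted p = 0.00700). Ccna2 had 5952, 5939 and 5889 normalised reads at day 5 and 7332, 7658 and 7331 at day 3 in the null line. Floxed samples of Ccna2 had 6866, 6634 and 7402 at day 5 and 6956, 7168 and 6853 at day 3. In the null line all day 5 samples lay below all day 3 samples (-0.33 ± 0.06, adjusted p = 0.000550), while in the floxed line the days overlapped (-0.01 ± 0.06, adjusted p = 0.941). Its exons share 510 bases with Exosc9 on the other strand, and whether reads were counted by strand is not given in the sources used here. Ccnb2 (ENSMUSG00000032218.6, chromosome 9, 70407692 to 70421547), cyclin B2, had 3410, 3791 and 3933 normalised reads at day 5 and 3418, 3446 and 4267 at day 3 in the null line. Floxed samples of Ccnb2 had 3002, 3280 and 3288 at day 5 and 3147, 2988 and 3373 at day 3. The days overlapped in both lines (0.01 ± 0.09, adjusted p = 0.966 in null, 0.01 ± 0.09, adjusted p = 0.944 in floxed). The phosphatases that activate Cdk1 were low and not called between days by limma. Cdc25b ranged from 567 to 1039 and Cdc25c from 667 to 844 normalised reads over the 12 samples. Cdc25b changed in the floxed line by 0.37 ± 0.15, adjusted p = 0.0701, and passed with the replicate number as a block (adjusted p = 0.0239) and with DESeq2 (0.0443). Foxm1 (ENSMUSG00000001517.14, chromosome 6, 128362967 to 128376146), the transcription factor of G2 and M phase genes, had 1716, 1536 and 1612 normalised reads at day 5 and 1405, 1545 and 1615 at day 3 in the null line. Floxed samples of Foxm1 had 1669, 1801 and 1701 at day 5 and 1622, 1588 and 1746 at day 3. Its days overlapped and there was no call (0.09 ± 0.08, adjusted p = 0.344 in null, 0.06 ± 0.08, adjusted p = 0.548 in floxed).

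Of 5 spindle checkpoint genes, 4 fell in the null and 2 in the floxed line, against 21.9% and 19.2% of all genes. Bub1 (ENSMUSG00000027379.13, chromosome 2, 127801122 to 127831865), a checkpoint kinase of the kinetochore, had 5400, 5230 and 4876 normalised reads at day 5 and 8778, 7571 and 7862 at day 3 in the null line. Floxed samples of Bub1 had 4555, 4718 and 4422 at day 5 and 7181, 6362 and 6602 at day 3. No other member fell by as much in either line (-0.64 ± 0.07, adjusted p = 2.61e-05 in null, -0.56 ± 0.07, adjusted p = 6.88e-05 in floxed), and the days were far apart in both. Ttk, the kinase Mps1 that starts checkpoint signalling, fell by 0.55 ± 0.09 on the log2 scale (adjusted p = 0.000232) in the null and 0.35 ± 0.09 on the log2 scale (adjusted p = 0.00506) in the floxed line, over a range of 1418 to 2420 normalised reads. Bub3 (ENSMUSG00000066979.5, chromosome 7, 131560222 to 131571895), the partner that docks Bub1 at the kinetochore, had 3080, 3442 and 3548 normalised reads at day 5 and 3848, 3987 and 4209 at day 3 in the null line. Floxed samples of Bub3 had 3671, 3812 and 4096 at day 5 and 3965, 4150 and 4104 at day 3. Its days were apart in the null line (-0.26 ± 0.07, adjusted p = 0.00880) and overlapped in the floxed line (-0.08 ± 0.07, adjusted p = 0.396). Bub1b, the checkpoint protein BubR1, went the same way (-0.24 ± 0.06, adjusted p = 0.00788 in null, -0.11 ± 0.06, adjusted p = 0.193 in floxed). Mad2l1 (ENSMUSG00000029910.14, chromosome 6, 66535390 to 66547220), the Mad2 protein that holds Cdc20 inactive, had 2196, 2395 and 2354 normalised reads at day 5 and 2314, 2370 and 2273 at day 3 in the null line. Floxed samples of Mad2l1 had 2825, 2619 and 3033 at day 5 and 2779, 2505 and 2700 at day 3. Mad2l1 was near level between days (-0.00 ± 0.07, adjusted p = 0.976 in null, 0.09 ± 0.07, adjusted p = 0.365 in floxed), and its null samples lay below its floxed samples on both days.

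All 4 genes of anaphase onset fell in the null line and 3 in the floxed line, against 21.9% and 19.2% of all genes. Cdc20 (ENSMUSG00000006398.15, chromosome 4, 118432901 to 118437352), the activator of the anaphase-promoting complex, had 5006, 5363 and 5642 normalised reads at day 5 and 6689, 6331 and 7477 at day 3 in the null line. Floxed samples of Cdc20 had 6153, 6490 and 6750 at day 5 and 7188, 7651 and 7547 at day 3. Every day 5 sample was below every day 3 sample of its line (-0.35 ± 0.07, adjusted p = 0.00172 in null, -0.21 ± 0.07, adjusted p = 0.0361 in floxed). Ube2c (ENSMUSG00000001403.13, chromosome 2, 164769898 to 164778822), the ubiquitin-conjugating enzyme of that complex, had 2079, 2056 and 2179 normalised reads at day 5 and 2965, 2683 and 3045 at day 3 in the null line. Floxed samples of Ube2c had 2329, 2311 and 2834 at day 5 and 3244, 3200 and 3259 at day 3. Ube2c fell by 0.46 ± 0.08 on the log2 scale (adjusted p = 0.000648) in the null and by 0.38 ± 0.08 on the log2 scale (adjusted p = 0.00232) in the floxed line, with no overlap. Espl1, separase, which cleaves cohesin, fell alike (-0.30 ± 0.08, adjusted p = 0.0107 in null, -0.30 ± 0.08, adjusted p = 0.0104 in floxed) over a range of 3501 to 5319 normalised reads. Pttg1, securin, the inhibitor of separase, fell in the null line (-0.36 ± 0.12, adjusted p = 0.0293) and had -0.26 ± 0.12, adjusted p = 0.104 in the floxed line. Single libraries bore on 3 of these calls. Cdc20 in the floxed line was lost without any 1 of day 3 replicates 1, 2 and 3 and day 5 replicates 1 and 2 (adjusted p = 0.0514 to 0.120). Pttg1 in the null line was lost without day 3 replicate 1 or 3 or day 5 replicate 1 or 2 (adjusted p = 0.0554 to 0.127, with a change of -0.24 at the least), and Espl1 in the null line without day 5 replicate 2 (adjusted p = 0.0542). Without the libraries numbered 3, Espl1 passed in neither line (adjusted p = 0.111 in null, 0.0778 in floxed).

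Centromere and kinetochore genes split. Of 7, 3 fell in the null line, where 21.9% of all genes fell. In the floxed line 2 fell and 2 rose, where 19.2% and 22.5% of all genes did. Cenpa (ENSMUSG00000029177.9, chromosome 5, 30666777 to 30674830), the histone H3 variant of centromeres, had 1815, 1819 and 2334 normalised reads at day 5 and 2803, 2549 and 2698 at day 3 in the null line. Floxed samples of Cenpa had 2188, 2246 and 2645 at day 5 and 3178, 2737 and 3005 at day 3. It was lower at day 5 in all samples of both lines (-0.44 ± 0.11, adjusted p = 0.00445 in null, -0.34 ± 0.11, adjusted p = 0.0214 in floxed). Nuf2 (ENSMUSG00000026683.14, chromosome 1, 169497934 to 169531464), a subunit of the Ndc80 complex that binds microtubules, had 1420, 1438 and 1378 normalised reads at day 5 and 1238, 1325 and 1221 at day 3 in the null line. Floxed samples of Nuf2 had 1637, 1667 and 1711 at day 5 and 1512, 1378 and 1362 at day 3. It went the other way, rising in the floxed line (0.24 ± 0.07, adjusted p = 0.0125), with 0.16 ± 0.07, adjusted p = 0.0667 in the null line. Its partner Ndc80 also rose in the floxed line (0.22 ± 0.07, adjusted p = 0.0314), with 0.19 ± 0.07, adjusted p = 0.0532 in the null line, over a range of 1330 to 1992 normalised reads. Spc25, a subunit of the same complex, fell in both lines (-0.38 ± 0.14, adjusted p = 0.0450 in null, -0.41 ± 0.14, adjusted p = 0.0324 in floxed), although its floxed days overlapped. Spc24, the fourth subunit, fell in the null line (-0.23 ± 0.08, adjusted p = 0.0370) with -0.05 ± 0.08, adjusted p = 0.672 in the floxed line. The 4 subunits of this complex thus did not move as one. Cenpe (ENSMUSG00000045328.11, chromosome 3, 135212537 to 135273611), a kinetochore motor, had 5560, 5600 and 5140 normalised reads at day 5 and 5432, 5188 and 5565 at day 3 in the null line. Floxed samples of Cenpe had 4378, 4976 and 5064 at day 5 and 4593, 4655 and 4899 at day 3. Its days overlapped in both lines, and Cenpf, a large protein of the outer kinetochore, had 0.18 ± 0.09, adjusted p = 0.106 in the null and 0.07 ± 0.09, adjusted p = 0.526 in the floxed line.

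Single libraries bore on several calls of the kinetochore genes. Cenpa in the floxed line was lost without day 3 replicate 1 or day 5 replicate 1 or 2 (adjusted p = 0.0716 to 0.0887). Ndc80 in the floxed line was lost without any 1 of day 3 replicates 2 and 3 and the 3 day 5 replicates (0.0586 to 0.109), and with upper-quartile scaling. In the null line Ndc80 passed with the replicate block (0.0434), and with upper-quartile or TMM scaling, edgeR and DESeq2. Nuf2 passed there with TMM scaling and edgeR. Spc24 was lost without null day 3 replicate 2 or 3 or day 5 replicate 1 or 3 (0.0636 to 0.148), with TMM scaling, in a fit of the null samples alone, and without the libraries numbered 3 (-0.15, adjusted p = 0.260). Spc25 was lost in the null line without day 3 replicate 1 or 3 or any day 5 replicate (0.0627 to 0.149), and with upper-quartile or TMM scaling and edgeR. In the floxed line it was lost without day 3 replicate 1 or 3 or day 5 replicate 1 or 2 (0.0786 to 0.137), and its change was -0.25 without day 3 replicate 3. Without the libraries numbered 3, neither Spc25 (0.0921 in null, 0.0659 in floxed) nor Ndc80 (0.186) nor Nuf2 (0.118) was called.

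The chromosomal passenger complex, which corrects wrong attachments and later guides cytokinesis, had 1 fall in the null and 1 rise in the floxed line. Among all genes 21.9% fell in the null and 22.5% rose in the floxed line. Aurkb (ENSMUSG00000020897.12, chromosome 11, 69045647 to 69051664), its Aurora kinase, had 2747, 3037 and 3192 normalised reads at day 5 and 2908, 2542 and 3008 at day 3 in the null line. Floxed samples of Aurkb had 2300, 2450 and 2753 at day 5 and 1962, 2027 and 2210 at day 3. In the floxed line the days did not overlap and Aurkb rose (0.27 ± 0.09, adjusted p = 0.0278), while in the null line they overlapped (0.09 ± 0.09, adjusted p = 0.465). Aurka and Aurkb, the Aurora kinases of poles and of centromeres, thus had changes of opposite sign in the floxed line. Birc5 (ENSMUSG00000017716.15, chromosome 11, 117849251 to 117855743), survivin, had 2380, 2518 and 2447 normalised reads at day 5 and 2498, 2897 and 2680 at day 3 in the null line. Floxed samples of Birc5 had 2033, 2111 and 2179 at day 5 and 2198, 2383 and 2080 at day 3. Its days overlapped (-0.13 ± 0.07, adjusted p = 0.154 in null, -0.07 ± 0.07, adjusted p = 0.451 in floxed). Incenp (ENSMUSG00000024660.8, chromosome 19, 9872296 to 9899551), the scaffold, had 3212, 2987 and 3118 normalised reads at day 5 and 3774, 3395 and 3637 at day 3 in the null line. Floxed samples of Incenp had 3206, 3376 and 3587 at day 5 and 3782, 3542 and 3770 at day 3. Incenp fell in the null line (-0.21 ± 0.07, adjusted p = 0.0192), with -0.13 ± 0.07, adjusted p = 0.147 in the floxed line. The Aurkb rise was lost without floxed day 3 replicate 1 or 2 or day 5 replicate 2 or 3 (adjusted p = 0.0528 to 0.116), without the libraries numbered 3 (0.0611), and with chromosome 11 centred (0.0581). The Incenp fall was lost without null day 3 replicate 1 or day 5 replicate 2 (0.0727 to 0.0753), or without the libraries numbered 3 (0.0828).

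Of the 5 kinesin motors, Kif11 fell and Kif23 rose in both lines, and limma called none of the others. Falls made up 21.9% of all genes in the null and 19.2% in the floxed line, and rises 22.6% and 22.5%. Kif23 (ENSMUSG00000032254.9, chromosome 9, 61915905 to 61946774), the motor MKLP1 of the central spindle, had 2970, 2950 and 2961 normalised reads at day 5 and 2245, 2271 and 2468 at day 3 in the null line. Floxed samples of Kif23 had 2514, 2572 and 2475 at day 5 and 2066, 2011 and 2234 at day 3. All day 5 samples lay above all day 3 samples in both lines, a rise of 0.35 ± 0.06, adjusted p = 0.000753 in null and 0.26 ± 0.06, adjusted p = 0.00507 in floxed samples. Kif11, the motor Eg5 that pushes the spindle poles apart, fell by 0.25 ± 0.06 on the log2 scale (adjusted p = 0.00480) in the null and 0.23 ± 0.06 on the log2 scale (adjusted p = 0.00892) in the floxed line, over a range of 6177 to 7942 normalised reads. Kif20a, Kif2c and Kif4 had changes from -0.14 to -0.05 in the null and from -0.13 to 0.05 in the floxed line. Kif20a shares 1271 exon bases with Cdc23 and Kif4 832 with Pdzd11, each on the other strand.

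Of the 5 genes of spindle assembly, midzone and cytokinesis, the 3 of the cleavage furrow and midzone (Anln, Ect2, Prc1) fell in both lines. The share of all genes that fell was 21.9% in the null and 19.2% in the floxed line. Anln (ENSMUSG00000036777.7, chromosome 9, 22332012 to 22389188), anillin, a scaffold of the contractile ring, had 4035, 3795 and 3620 normalised reads at day 5 and 5201, 4504 and 4910 at day 3 in the null line. Floxed samples of Anln had 3502, 3426 and 3409 at day 5 and 4340, 4187 and 4292 at day 3. Day 5 was the lower in every sample. Ect2 (ENSMUSG00000027699.19, chromosome 3, 27097222 to 27153878), the exchange factor that activates RhoA at the furrow, had 3834, 3689 and 3762 normalised reads at day 5 and 5508, 4880 and 4766 at day 3 in the null line. Floxed samples of Ect2 had 3583, 3409 and 3838 at day 5 and 4604, 4240 and 4083 at day 3. Like those of Anln, its days did not overlap in either line. Anln fell by 0.35 ± 0.07 on the log2 scale (adjusted p = 0.000916) in the null and 0.31 ± 0.07 on the log2 scale (adjusted p = 0.00221) in the floxed line. Ect2 fell by 0.42 ± 0.07 on the log2 scale (adjusted p = 0.000537) in the null and by 0.26 ± 0.07 on the log2 scale (adjusted p = 0.0135) in the floxed line. Prc1, which bundles midzone microtubules, changed by -0.32 ± 0.09, adjusted p = 0.00820 in null and -0.23 ± 0.09, adjusted p = 0.0463 in floxed samples. Tpx2, the activator of Aurora A (-0.02 ± 0.06, adjusted p = 0.853 in null, 0.09 ± 0.06, adjusted p = 0.245 in floxed), and Nusap1 (-0.17 ± 0.09, adjusted p = 0.140 in null, -0.04 ± 0.09, adjusted p = 0.725 in floxed) were not called by limma. In the floxed line Prc1 was lost without any 1 of the day 3 replicates or day 5 replicates 1 and 2 (adjusted p = 0.0775 to 0.166), with edgeR and in a fit of the floxed samples alone. Ect2 there was lost without day 3 replicate 1 or day 5 replicate 2 (0.0598 to 0.0690). Ect2, Prc1 and Anln are partners or neighbours of Kif23 at the midzone and furrow, and Kif23 was the member with the opposite sign.

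The genes of mitotic chromosomes parted as well. Top2a (ENSMUSG00000020914.17, chromosome 11, 98992943 to 99024189), topoisomerase II alpha, which untangles sister chromatids, had 37368, 38301 and 43936 normalised reads at day 5 and 49180, 44822 and 56038 at day 3 in the null line. Floxed samples of Top2a had 24854, 24269 and 30907 at day 5 and 32868, 31522 and 33887 at day 3. Day 5 lay below day 3 within each line (-0.32 ± 0.11, adjusted p = 0.0233 in null, -0.30 ± 0.11, adjusted p = 0.0332 in floxed). Mki67 (ENSMUSG00000031004.7, chromosome 7, 135689784 to 135716361), the Ki-67 protein that coats mitotic chromosomes, had 18518, 16780 and 16351 normalised reads at day 5 and 16503, 14113 and 16696 at day 3 in the null line. Floxed samples of Mki67 had 11950, 18406 and 15918 at day 5 and 14016, 14479 and 16822 at day 3. Its days overlapped in both lines (0.13 ± 0.13, adjusted p = 0.457 in null, 0.01 ± 0.13, adjusted p = 0.951 in floxed), with the widest spread among floxed day 5 samples. The Top2a fall was lost without null day 3 replicate 1 or 3 or day 5 replicate 1 or 2 (adjusted p = 0.0507 to 0.0969), and in the floxed line without any 1 of the day 3 replicates or day 5 replicates 1 and 2 (0.0545 to 0.129).

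**Figure D2:**
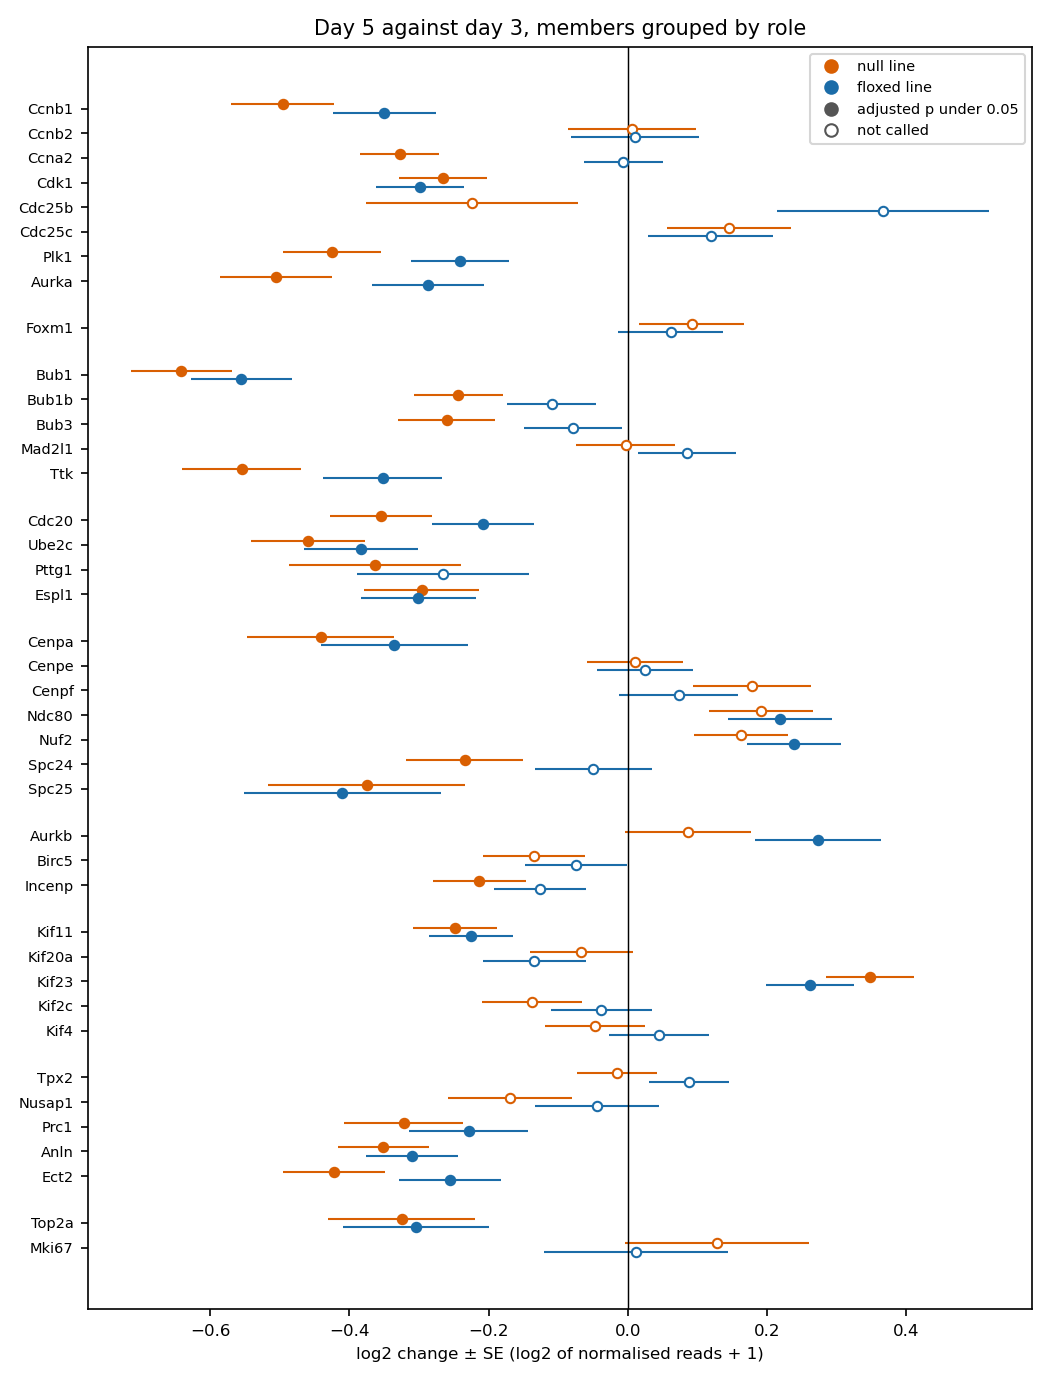
Log2 change between day 5 and day 3 for each of the 40 members, grouped by role, in the null (orange) and the floxed line (blue), as estimate ± SE with filled points for an adjusted p under 0.05. Bub1 lies farthest left in both lines, at -0.64 in null and -0.56 in floxed, and Kif23 is the member called to the right in both.

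Null against floxed embryoid bodies at day 5 gave calls in both directions, in a share of the members near that of all genes. Of the 40 members, 8 were lower in null samples (Ccnb1, Ccna2, Aurka, Bub3, Mad2l1, Cdc20, Ube2c, Nuf2) and 3 higher (Top2a, Birc5, Kif23), where 13.5% of all genes tested were lower and 13% higher, 26.5% in all. Changes were below 0 in 23 members, against 52% of all genes. The 8 lay between -0.29 and -0.20 on the log2 scale. The median member changed by -0.03, against -0.02 over all genes, and by 0.02, against 0.03 over all genes, with upper-quartile scaling. In 11 members every null sample lay below every floxed sample and in 9 above, where 22.2% and 19.8% of all genes did so. None of the 8 lower members lies on chromosome 11, while Top2a and Birc5 do. The 36 members of other chromosomes had 1 rise, that of Kif23, and a median of -0.05.

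These calls were close to the threshold. Upper-quartile scaling gave 3 lower (Ccna2, Mad2l1, Cdc20) and 8 higher members. Under it 59% of all calls were higher, against 49.2% in the scaling used. With edgeR 5 members were lower and 4 higher, where 2155 of 17000 genes were lower and 2335 higher. With DESeq2 9 members were lower and 5 higher, where 2530 of all genes were lower and 2394 higher. The replicate block called 5 further members. Without the libraries numbered 3, Cdc20 was the only lower and Top2a the only higher member called.

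Among the genes of mitotic entry, 3 of 8 were lower in null samples at day 5, where 13.5% of all genes were. Ccna2, whose 3 null values lay within 5889 to 5952 normalised reads, against 6634 to 7402 in floxed samples, fell by 0.23 ± 0.06 on the log2 scale (adjusted p = 0.0108). Ccnb1 averaged 6989 ± 444 normalised reads in null and 8225 ± 715 in floxed samples. Aurka averaged 2416 ± 181 normalised reads in null and 2853 ± 250 in floxed samples, and neither gene had overlapping samples (-0.23 ± 0.07, adjusted p = 0.0337 for Ccnb1, -0.24 ± 0.08, adjusted p = 0.0427 for Aurka). Plk1 was also lower in every null sample but missed the threshold (-0.19 ± 0.07, adjusted p = 0.0572, and 0.0408 with the replicate block). Cdk1 had overlapping samples (-0.03 ± 0.06, adjusted p = 0.746, 95% interval -0.17 to 0.10). Ccnb2, the other B-type cyclin of the members, was higher in every null sample without passing (0.22 ± 0.09, adjusted p = 0.0986, and 0.0301 with the replicate block). The changes were -0.29 ± 0.15 for Cdc25b and 0.02 ± 0.09 for Cdc25c, with overlapping samples, and -0.09 ± 0.08, adjusted p = 0.417 for Foxm1, whose samples overlapped too. Ccna2 kept its call without each single library. Ccnb1 was lost without floxed day 5 replicate 3 or null day 5 replicate 1 or 2 (0.0859 to 0.141), and Aurka without floxed day 5 replicate 1 or 3 or null day 5 replicate 1 or 2 (0.0628 to 0.164). Exosc9, which overlaps Ccna2 on the other strand, changed by -0.26 (adjusted p = 0.0713).

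In the checkpoint, Mad2l1 and Bub3 were lower in null samples at day 5. Mad2l1 averaged 2315 ± 105 normalised reads in null and 2826 ± 207 in floxed samples (-0.29 ± 0.07, adjusted p = 0.0111). Bub3 averaged 3356 ± 245 normalised reads in null and 3860 ± 216 in floxed samples (-0.20 ± 0.07, adjusted p = 0.0478), with no overlap for either gene. Bub1b lay below in every null sample without passing (-0.14 ± 0.06, adjusted p = 0.116). Bub1 lay above in every null sample, also without passing (0.18 ± 0.07, adjusted p = 0.0862, and 0.0420 with the replicate block), and Ttk had overlapping samples (-0.01 ± 0.09, adjusted p = 0.964). Genes of 1 checkpoint thus had changes of both signs. Mad2l1 held without each single library, while Bub3 was lost without any 1 of the floxed day 5 replicates or null replicates 1 and 2 (0.0526 to 0.169), and with chromosome 11 left out (0.0502) or centred (0.0507).

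For anaphase onset, Cdc20 and Ube2c were lower in null samples at day 5. Cdc20 averaged 5337 ± 319 normalised reads in null and 6464 ± 299 in floxed samples (-0.28 ± 0.07, adjusted p = 0.0149). Ube2c averaged 2104 ± 65.1 normalised reads in null and 2491 ± 297 in floxed samples (-0.24 ± 0.08, adjusted p = 0.0479). The highest null sample lay below the lowest floxed sample for both. Espl1 and Pttg1 had overlapping samples (0.13 ± 0.08, adjusted p = 0.253 for Espl1, 0.10 ± 0.12, adjusted p = 0.585 for Pttg1). Cdc20 was lost without floxed day 5 replicate 3 or null replicate 1 (0.0540 to 0.0561). Ube2c was lost without floxed day 5 replicate 3 or any null replicate (0.0697 to 0.198), being -0.14 without floxed replicate 3, whose 2834 normalised reads stood above 2311 and 2329 in the other floxed samples, and with chromosome 11 left out (0.0504) or centred (0.0508). Ube2c shares 592 exon bases with Tnnc2 and Cdc20 53 with Elovl1 on the other strand, and those genes changed by 0.99 (adjusted p = 0.262) and 0.12.

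At the kinetochore, Nuf2 was lower in null samples at day 5, averaging 1412 ± 30.6 normalised reads in null and 1671 ± 37.4 in floxed samples (-0.24 ± 0.07, adjusted p = 0.0189). Its partner in the same dimer, Ndc80, was higher in every null sample (0.15 ± 0.07, adjusted p = 0.161), without passing. The large kinetochore proteins Cenpe (0.18 ± 0.07, adjusted p = 0.0725) and Cenpf (0.24 ± 0.09, adjusted p = 0.0575) were likewise higher in every null sample and missed the threshold, and Cenpf passed with DESeq2 (0.0488). Cenpa had -0.25 ± 0.11, adjusted p = 0.0959, with 0.0389 in the fit with the replicate block, and Spc24 and Spc25 had -0.06 ± 0.08, adjusted p = 0.662 and -0.16 ± 0.14, adjusted p = 0.426. Nuf2 was lost without floxed day 5 replicate 3 or null day 5 replicate 3 (0.0625 to 0.0629).

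Top2a, Birc5 and Kif23 were higher in null samples at day 5. Top2a averaged 39868 ± 3554 normalised reads in null and 26676 ± 3675 in floxed samples, 1.5 times as much (0.58 ± 0.11, adjusted p = 0.00196), and kept its call without each single library. Birc5 averaged 2448 ± 68.7 normalised reads in null and 2108 ± 73.1 in floxed samples (0.22 ± 0.07, adjusted p = 0.0445), and the call was lost without any 1 of the 6 day 5 libraries (0.0621 to 0.132). Aurkb had overlapping samples and missed the threshold (0.26 ± 0.09, adjusted p = 0.0502, and 0.0131 with the replicate block). After the median change of chromosome 11 was subtracted, Top2a stood at 0.26 (adjusted p = 0.0900) and Birc5 at -0.11 (0.303). Aurkb then stood at -0.07 (0.639) and Pttg1 at -0.22 (0.208). Kif23, on chromosome 9, averaged 2960 ± 10.2 normalised reads in null and 2521 ± 49.1 in floxed samples (0.23 ± 0.06, adjusted p = 0.0175), with all null above all floxed samples, a call lost without floxed day 5 replicate 3 (0.0562). Incenp had -0.13 ± 0.07, adjusted p = 0.183, and the other kinesins lay between -0.09 and -0.02. Anln was higher in every null sample without passing (0.15 ± 0.07, adjusted p = 0.119), and Tpx2, Nusap1, Prc1 and Ect2 had overlapping samples with changes of -0.08 to 0.06. Mki67 had 0.18 ± 0.13, adjusted p = 0.347, with overlapping samples.

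**Figure D3:**
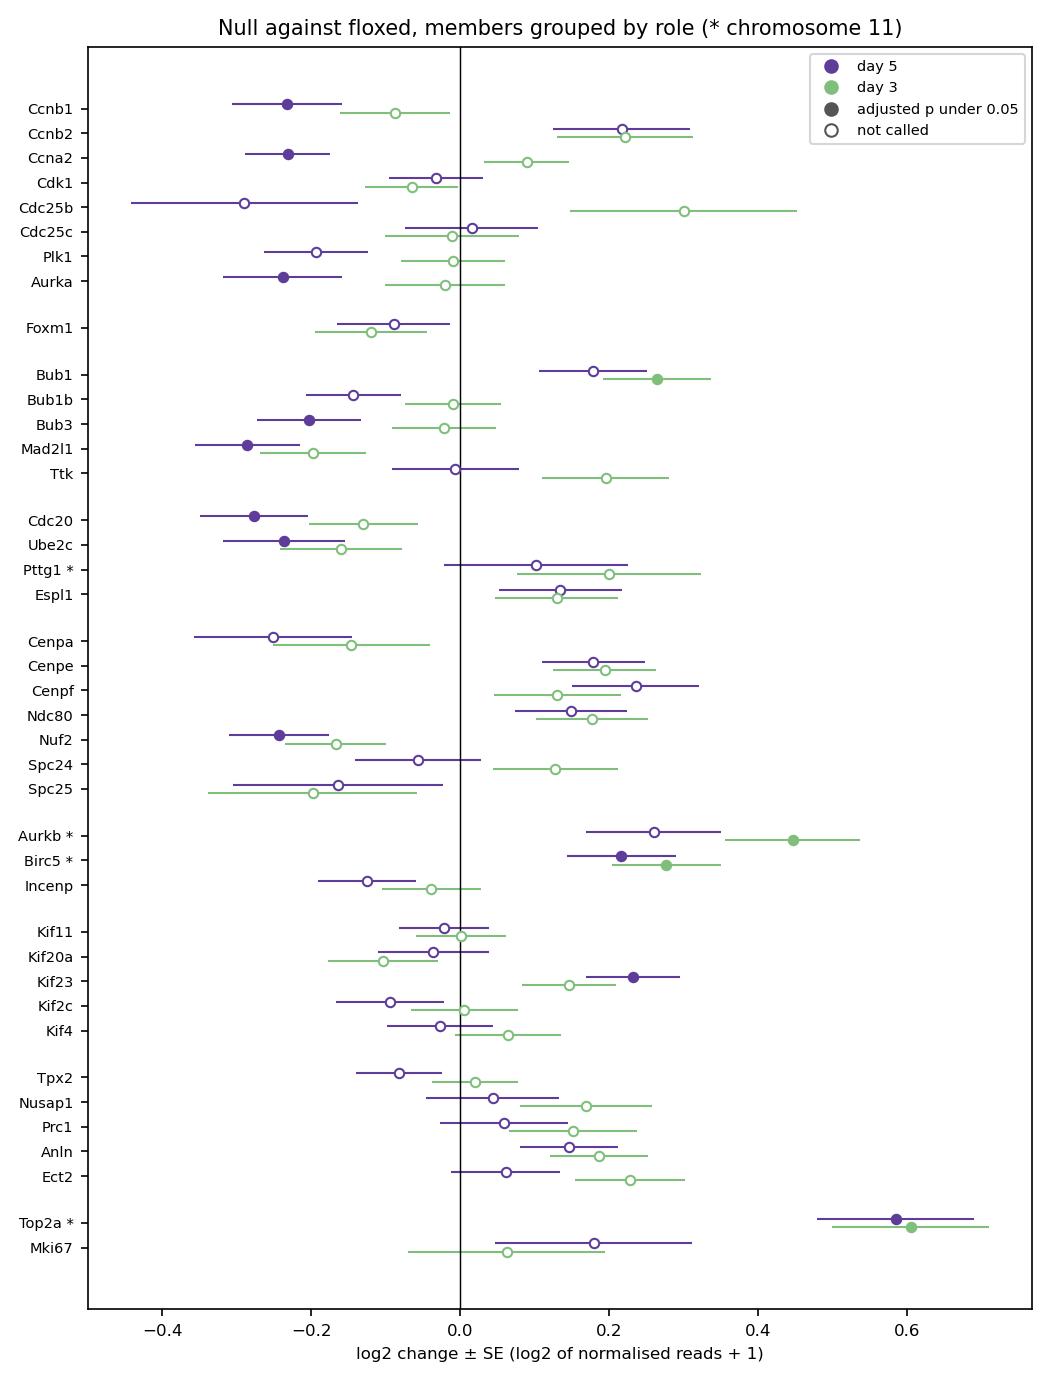
Log2 change between null and floxed embryoid bodies for each of the 40 members, grouped by role, at day 5 (purple) and day 3 (green), as estimate ± SE with filled points for an adjusted p under 0.05 and an asterisk for chromosome 11. Top2a lies farthest right on both days, at 0.58 at day 5 and 0.60 at day 3, and the 8 members called lower are all of day 5.

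Null against floxed embryoid bodies at day 3 gave fewer calls. Top2a, Aurkb, Birc5 and Bub1 were higher in null samples and no member was lower, where 4.09% of all genes tested were higher and 2.03% lower, 6.12% in all. Changes were below 0 in 16 members, against 50.6% of all genes. At an unadjusted p under 0.05, 11 members were higher and 2 lower, where 2049 of 17000 genes were higher and 1793 lower. With edgeR 3 members were higher, where 664 of all genes were, and with DESeq2 5, where 1025 were. Both had 0 members lower, where edgeR called 343 genes lower and DESeq2 671. The median member changed by 0.06, against -0.004 over all genes. In 14 members every null sample lay above every floxed sample and in 3 below, where 14.8% and 13.1% of all genes did so. On chromosome 11 the 4 members had a median of 0.36, equal to that of all genes of the chromosome, and the other 36 a median of 0.01 with 1 rise, that of Bub1. Without the libraries numbered 3, Top2a and Aurkb were called.

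At day 3, Top2a averaged 50013 ± 5654 normalised reads in null and 32759 ± 1186 in floxed samples (0.60 ± 0.11, adjusted p = 0.00574). Aurkb averaged 2819 ± 245 normalised reads in null and 2066 ± 129 in floxed samples (0.45 ± 0.09, adjusted p = 0.0126), both with every null above every floxed sample. Birc5 averaged 2691 ± 200 normalised reads in null and 2221 ± 152 in floxed samples (0.28 ± 0.07, adjusted p = 0.0423). Bub1 averaged 8070 ± 630 normalised reads in null and 6715 ± 421 in floxed samples (0.26 ± 0.07, adjusted p = 0.0495), also without overlap. With chromosome 11 centred, Top2a stood at 0.25 (adjusted p = 0.217), Aurkb at 0.09 (0.643) and Birc5 at -0.082 (0.575). Pttg1, the fourth member on chromosome 11, was higher in every null sample and missed the threshold (0.20 ± 0.12, adjusted p = 0.368). With the chromosome centred, Pttg1 stood at -0.16 (0.513). Bub1, on chromosome 2, was no longer called with chromosome 11 left out (0.0746) or centred (0.0735), with upper-quartile or TMM scaling, with edgeR or with no filter on low values. Top2a kept its call without each single library. Aurkb was lost without floxed day 3 replicate 1 or null replicate 3 (0.0584 to 0.0586), Birc5 without floxed replicate 1 or 3 or null replicate 2 or 3 (0.107 to 0.126), and Bub1 without any 1 of the floxed replicates or null replicates 1 and 3 (0.0581 to 0.166). Ect2, the exchange factor for RhoA, was higher in every null sample (0.23 ± 0.07, adjusted p = 0.0867, and 0.0459 with the replicate block).

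Ccnb1, Ccna2, Aurka and Cdc20, called at day 5, were not called at day 3, with -0.09 ± 0.07, adjusted p = 0.526 for Ccnb1, 0.09 ± 0.06, adjusted p = 0.383 for Ccna2, -0.02 ± 0.08, adjusted p = 0.912 for Aurka and -0.13 ± 0.07, adjusted p = 0.317 for Cdc20. Mad2l1 (-0.20 ± 0.07, adjusted p = 0.120), Nuf2 (-0.17 ± 0.07, adjusted p = 0.164) and Ube2c (-0.16 ± 0.08, adjusted p = 0.267) were lower in every null sample of day 3 too, without passing. Bub3, the eighth, had -0.02 ± 0.07, adjusted p = 0.894. Kif23 was higher in every null sample (0.15 ± 0.06, adjusted p = 0.193), as were Ccnb2 (0.22 ± 0.09, adjusted p = 0.175), Cenpe (0.19 ± 0.07, adjusted p = 0.117) and Anln (0.19 ± 0.07, adjusted p = 0.114), none of them past the threshold. Cdk1, Plk1 and Mki67 had overlapping samples, at -0.07 ± 0.06, adjusted p = 0.586, -0.01 ± 0.07, adjusted p = 0.955 and 0.06 ± 0.13, adjusted p = 0.832, and so had Foxm1 (-0.12 ± 0.08, adjusted p = 0.377).

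Whether the genotype change differed between the days was tested as an interaction, in which 0.476% of all genes passed, 0.247% higher and 0.229% lower. No member passed with limma or edgeR. At an unadjusted p under 0.05, 2 were lower, Ccna2 and Cdc25b, and 0 higher, where 1324 of 17000 genes were lower and 1088 higher. DESeq2 called Ccna2 (-0.32, adjusted p = 0.00700), where it called 270 of all genes lower and 241 higher. Ccna2, whose null samples all lay below the floxed samples at day 5 and all above them at day 3, had -0.32 ± 0.08, adjusted p = 0.0984 with limma, and 0.0603 with the replicate block. Cdc25b had -0.59 ± 0.22, adjusted p = 0.238, its 3 null samples lying above the floxed samples at day 3 and overlapping them at day 5, where floxed replicate 3 reached 1039 normalised reads against 621 and 720. In 31 of the 40 members the interaction was below 0, with a median of -0.09, where 52.2% of all genes were below 0 and the median was -0.015. The interaction and both genotype comparisons share samples, so their values are not independent.

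**Figure D4:**
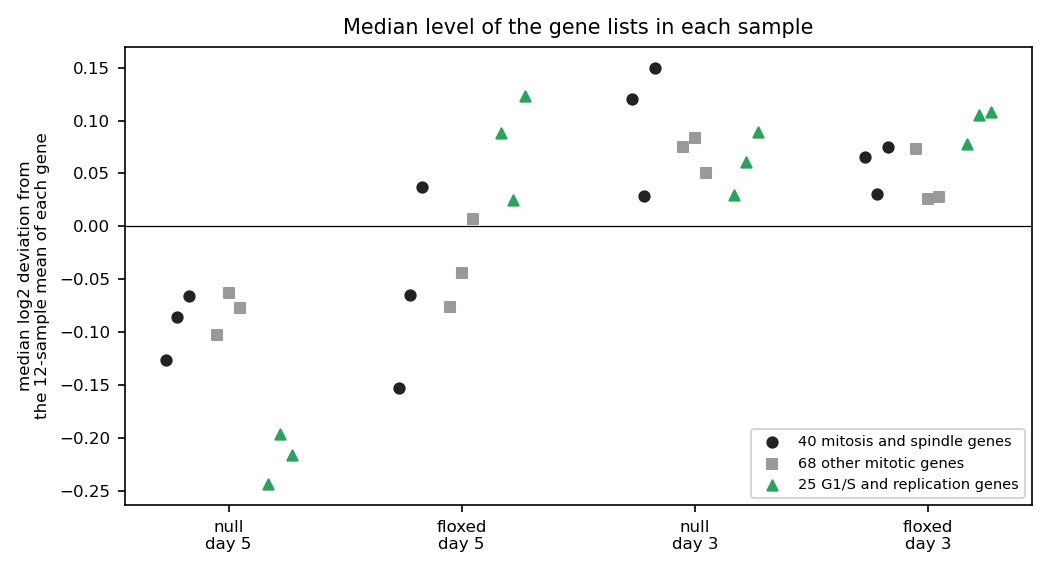
Median deviation from the mean of the 12 samples, on the log2 scale, of the 40 members (black), 68 other mitotic genes (grey) and 25 genes of G1/S and DNA replication (green), with 1 point per sample and list. Members lie from -0.13 to -0.07 in null and -0.15 to 0.04 in floxed samples at day 5 and from 0.03 to 0.15 and 0.03 to 0.07 at day 3, while the replication genes lie from -0.24 to -0.20 in null and 0.02 to 0.12 in floxed samples at day 5.

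Other genes of the cell cycle set the members in context. At day 5, where 26.5% of all genes were called, 15 of 68 further mitotic genes were lower and 4 higher in null samples. The median of the 68 was -0.04. At day 3, where 6.12% of all genes were called, 0 of the 68 were lower and 3 higher. Those of smallest p at day 5 were Hmmr, a spindle assembly factor on chromosome 11 (0.54 ± 0.08), Rcc1, the exchange factor for Ran (-0.49 ± 0.08), Cdc25a, a phosphatase of Cdk2 and Cdk1 (-0.37 ± 0.07), and Zw10 of the checkpoint (-0.37 ± 0.08). At day 3 the rises were of Hmmr (0.55 ± 0.08), Dlgap5 (0.27 ± 0.06) and Mis12 (0.35 ± 0.08), of which Hmmr and Mis12 lie on chromosome 11. Between days 27 of the 68 genes fell and 3 rose in the null line, led by Nek2 (-0.52) and Cdca5 (-0.59). In the floxed line 17 fell and 4 rose, led by Zwilch (-0.46) and Sgo2a (-0.50). Of all genes, 21.9% fell and 22.6% rose in the null line, 44.5% in all, and 19.2% and 22.5% in the floxed line, 41.7% in all.

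Of 17 subunits and regulators of the anaphase-promoting complex, 4 were lower in null samples at day 5, among them Cdc26 (-0.39 ± 0.09), Fbxo5 (-0.37 ± 0.10) and Cdc16 (-0.24 ± 0.07), and 1 higher (Anapc11, on chromosome 11), where 26.5% of all genes were called. At day 3, 1 was lower (Cdc26, -0.40 ± 0.09) and 2, Anapc11 and Cdc27, both on chromosome 11, higher, where 6.12% of all genes were called. Ube2s, which extends ubiquitin chains after Ube2c, fell between the days by 1.02 in the null and by 0.68 in the floxed line. Of 17 condensin and cohesin genes, limma, edgeR and DESeq2 called 0 between the lines on either day. At an unadjusted p under 0.05, 1 was higher at day 5 and 2 at day 3, where 3184 and 2049 of all 17000 genes were. Over time 6 of the 17 fell and 2 rose in the null and 5 fell and 2 rose in the floxed line. Ncapd3 of condensin II stood at -0.39 and -0.44. Of all genes, 21.9% fell and 22.6% rose over time in the null line, and 19.2% and 22.5% in the floxed line. Of 14 genes of centrosomes and spindle poles, 3 were higher in null samples at day 5 (Cenpj 0.48 ± 0.11, Nedd1 0.27 ± 0.07, and Tubg1, on chromosome 11, 0.41 ± 0.11), and none passed at day 3 (2 higher at an unadjusted p under 0.05, 0 with edgeR and DESeq2). Over time 3 fell and 3 rose in the null and 3 fell and 2 rose in the floxed line, Plk4, the kinase of centriole duplication, falling by 0.47 and 0.44.

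Of 19 genes of MuvB, B-Myb, pocket proteins and E2F, 7 were lower in null samples at day 5, among them Tfdp1, the partner of E2F factors (-0.59 ± 0.08), Mybl2, which is B-Myb (-0.65 ± 0.14), and E2f3 (-0.41 ± 0.09), and Rb1, a pocket protein, was higher (0.65 ± 0.13). At day 3 limma called Tfdp1 (-0.32 ± 0.08), and DESeq2 called 2 lower, where it called 671 of 17000 genes lower. Of all genes tested, limma called 13.5% lower and 13% higher at day 5, and 2.03% and 4.09% at day 3. Of 25 genes of G1/S and DNA replication, 16 were lower and 0 higher in null samples at day 5, with a median of -0.32, and at day 3 Cdk2 was lower (-0.35 ± 0.09). Pola1, a subunit of the primase polymerase (-0.67 ± 0.09), and Pcna, the sliding clamp of replication (-0.56 ± 0.07), were among them. Between days 14 of these 25 fell in the null line, where 21.9% of all genes fell, and 0 rose, led by Ccne1 (-0.78) and Mcm2 (-0.53). In the floxed line 5 fell and 2 rose, where 19.2% of all genes fell and 22.5% rose. The interaction was below 0 in all 25, against 52.2% of all genes. None of the 25 passed it with limma or edgeR. At an unadjusted p under 0.05, 14 were lower, where 1324 of 17000 genes were, and with DESeq2 3, where 270 were. Among 7 CDK inhibitors Cdkn1c, the inhibitor p57, changed by -3.22 at day 5 and -1.9 at day 3 in null against floxed samples. Limma called no other, while at day 5 DESeq2 called 1 higher, where it called 2394 of 17000 genes higher. At an unadjusted p under 0.05, 3 of the 7 were higher at day 5, where 3184 of all genes were.

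**Figure D5:**
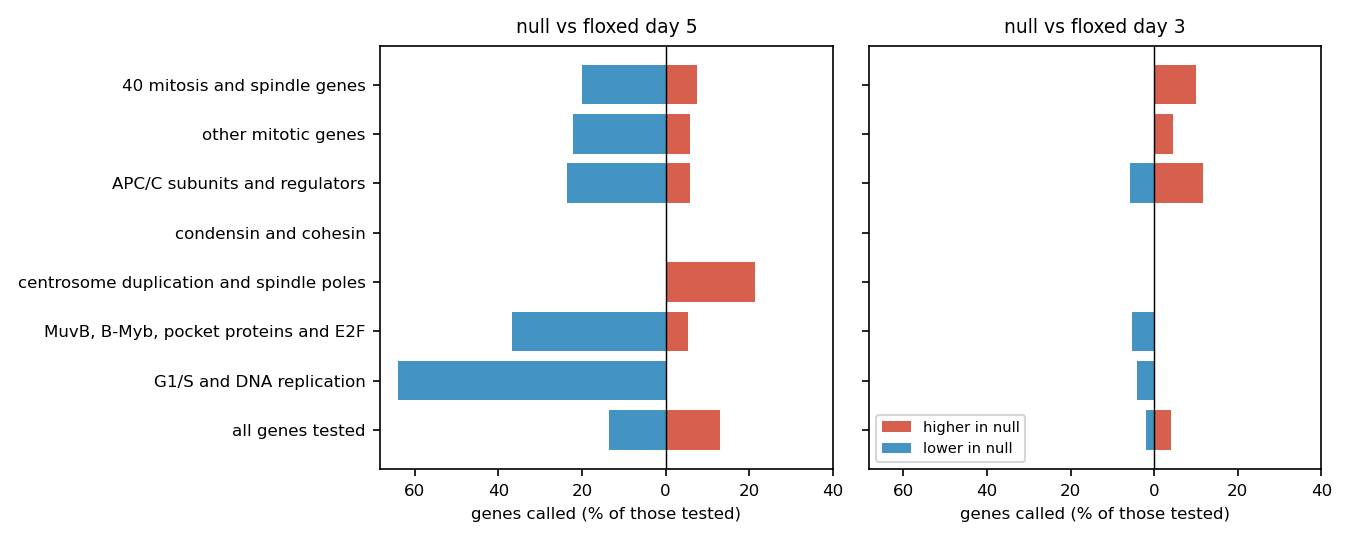
Share of genes called higher (red, to the right) or lower (blue, to the left) in null against floxed embryoid bodies at day 5 (left panel) and day 3 (right panel), as a percentage of the genes tested in each list and in all genes. At day 5 the 40 members show 8 lower and 3 higher, the 25 genes of G1/S and replication 16 lower, and condensin and cohesin none.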

How the data were processed

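Total RNA of 12 embryoid body samples was sequenced from stranded libraries amplified with 8 PCR cycles, per the labels. The authors deposited 1 table of signal values, which are read counts per gene divided by a size factor for each library. Per the submitters' processing notes, the genome build was mm10 and the tools were DESeq 1.16.0, HTSeq 0.6.0, TopHat2 2.0.10 and CASAVA 1.8.2. Strand use in counting is not given in the sources used here. Whole reads were recovered from 100% of values (tolerance 0.01). Symbols came from GENCODE M21, matched for 18199 of 18269 IDs.

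A gene was tested if any group averaged 10 or more, which 17000 did. Tests were two-sided and used limma (version 3.58.1, R 4.3.3) on log2(value + 1). The model held 1 mean for each of the 4 groups of the 12 samples, with 8 degrees of freedom from residuals and 5.00 from the prior, and p-values were adjusted by Benjamini-Hochberg at 0.05. Fold changes are on that log2 scale, which understates changes of low genes. Alternatives were other scalings, filters and pseudocounts, edgeR 4.0.16 and DESeq2 1.42.0 on the recovered reads, a replicate block, chromosome 11 left out or centred, each library left out and, chosen after seeing the data, all libraries numbered 3 left out. Deviations of same-numbered samples correlated at 0.270 to 0.372 between lines at day 3, at 0.247 to 0.424 at day 5 and at 0.123 to 0.282 between days in the null line, which pairs them by a rule of over 0.1 for every pair; the floxed days (0.0814 to 0.214) did not meet it. No 2 libraries of the same group agreed within sampling noise.

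Members and gene lists were chosen with earlier results of these data known. Values per sample were given for members called at day 5, the member of smallest p of each role, and Ccnb1, Cdk1, Plk1, Aurka, Aurkb, Cdc20, Top2a, Mki67 and Foxm1; of other lists, at most 4 genes of smallest p per genotype comparison and 2 per time comparison. Scripts were tested on simulated data.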

Additional observations from a re-analysis of the deposited data

How the results depend on the processing

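Counts of calls between the lines changed with the processing as follows, and the cause was not tested except where an alternative itself removes samples or genes. At day 3 all genes called (1041) became 1696 with DESeq2, 1866 with the replicate block, 647 with the samples of the comparison alone, 388 with chromosome 11 left out, 460 with it centred and 383 without the libraries numbered 3. Members called higher there (4) became 2 with the samples of the comparison alone and 2 without the libraries numbered 3, and 0 with chromosome 11 left out or centred. At day 5, members called higher (3) became 8 with upper-quartile scaling, 5 with TMM and with DESeq2, 6 with the replicate block, and 1 with chromosome 11 left out, with it centred, and without the libraries numbered 3. Members called lower (8) became 3 with upper-quartile scaling, 5 with TMM and with edgeR, 9 with DESeq2 and 10 with the replicate block. They became 4 with the samples of the comparison alone and 1 without the libraries numbered 3, where all genes called (4509) became 2591. Members rising in the null line (1) became 2 with upper-quartile scaling, DESeq2 and the block and 3 with TMM and edgeR; those rising in the floxed line (4) became 1 without the libraries numbered 3. For the interaction all genes called (81) became 511 with DESeq2, 443 with the block and 35 without the libraries numbered 3, and members called lower (0) became 1 with DESeq2. Upper-quartile scaling moved the share of higher calls at day 5 to 59%, against 49.2%, and that of the interaction to 64.7%, against 51.9%. With chromosome 11 centred, Birc5 changed sign, to -0.082 at day 3 and -0.11 at day 5. The replicate block, where the numbers pair the samples, also called Ect2 at day 3 (0.0459), Ccnb2, Plk1, Bub1, Cenpa and Aurkb at day 5 (0.0131 to 0.0420) and Ndc80 over time in null (0.0434), for 10 lower and 6 higher at day 5, and ended no call of a member. In the floxed line, where the numbers do not pair the samples, it added Cdc25b (0.0239). Leaving out each library gave 426 to 779 genes and 1 to 3 higher members at day 3, 3225 to 4077 genes with 2 to 3 higher and 2 to 7 lower members at day 5, 1 to 2 rises and 17 to 21 falls in null, 2 to 4 rises and 9 to 17 falls in floxed, and 3 to 115 genes and 0 members for the interaction; the median member changed by 0.02 to 0.10 at day 3 and by -0.05 to 0.01 at day 5. Changes of sign among members called under neither setting were not counted as reversals. Each member had at least 509 reads in every library, and each group 3 samples.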
